A study of Mus musculus with 11 samples.

Results

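Cd40lg, Tnfsf8, Tnfsf11, Tnf and Lta encode 5 ligands of the tumour necrosis factor (TNF) family that CD4 T cells use to signal to other cells. They were taken by gene symbol, as 5 of the 17097 genes that the array could name by 1 symbol. Of the 45141 probe sets in the table, 6 belonged to these ligands: 1 each for Cd40lg (1422283_PM_at), Tnfsf8 (1450272_PM_at), Tnf (1419607_PM_at) and Lta (1420353_PM_at), and a pair for Tnfsf11 (1419083_PM_at and 1451944_PM_a_at). No filter on low values was applied, so all 5 ligands entered the tests. The arrays carried RNA of T cells from 16-week-old male NOD mice, a strain in which males develop autoimmune inflammation of the lacrimal gland. The sorted CD4 subsets of the lacrimal gland (LG) had 3 arrays each: effector regulatory cells (LG_eTreg) and effector conventional cells (LG_eTconv), both stated as PD1high ICOShigh CD73low CD200low, and cells without PD1 and ICOS (LG_naive). The design text states the same surface gate for both effector subsets, so what separated LG_eTreg from LG_eTconv in the sort is not given by it. Total CD4 (Spl_CD4) and total CD8 T cells (Spl_CD8) from spleens of the same mice had 1 array each. All groups were live ex vivo T cells of NOD males of 1 age, with no treatment or engineered allele in the labels, and arrays of another strain were not analysed here. Gland cells came from mechanically and enzymatically dissociated tissue and went from the sorter into lysis buffer.

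TNF family ligands are made as trimers, mostly on the cell surface, and signal through receptors that recruit TRAF adaptors or death domain proteins and in many cases activate NF-κB. In CD4 T cells their genes are induced by antigen receptor signalling. CD40 ligand engages CD40 on B cells and antigen-presenting cells and is needed for germinal centres, and lymphotoxin alpha takes part in the formation of lymphoid tissue. In the inflamed glands of NOD mice lymphocytes gather in foci that can take on such an organisation.

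All 5 ligands were lower in LG_eTreg than in LG_eTconv, with no overlap between the groups' arrays. The size of the difference ran from 1.71-fold for Tnf to 14.8-fold for Tnfsf8. Against LG_naive, 4 of the 5 (Tnfsf8, Tnfsf11, Tnf and Lta) were higher in LG_eTconv, and Cd40lg was not. In LG_eTreg, Tnfsf11 was higher than in LG_naive, Cd40lg was lower, and the other 3 did not pass the test. Among all genes tested by limma at an adjusted p under 0.05, 5.7% were called between LG_eTreg and LG_eTconv (2.76% as lower), 13.5% between LG_eTconv and LG_naive (6.45% as higher) and 11.7% between LG_eTreg and LG_naive (6.2% as higher and 5.47% as lower). LG_eTreg lay below LG_eTconv without overlap for 9.63% of genes. Groups did not overlap, in either direction, for 31.1% of genes between LG_eTconv and LG_naive and for 27.1% between LG_eTreg and LG_naive, where 4 of the 5 ligands each did not. The 3 comparisons use the same 9 arrays in pairs of groups, so they are not independent of each other. The ligands' median log2 difference was −2.12 in LG_eTreg minus LG_eTconv, 2.30 in LG_eTconv minus LG_naive and 0.16 in LG_eTreg minus LG_naive, where the medians of all genes were 0.01, −0.03 and −0.02. In sorted bulk RNA a lower signal from fewer cells that use a gene cannot be told apart from less RNA of it per cell.

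Values are log2 signals as deposited, with base 2 inferred. The background limit of an array was its highest nonspecific control probe set and ran from 0.945 to 1.70, which left 55.5% to 65.6% of the genes above it. Signals of different probe sets cannot be set against each other, so levels are compared between groups within a probe set only. Precision is limited by how few arrays there are. Whether a group's arrays hold RNA of different mice is not stated, so the p-values cover the spread among these arrays alone, and that spread may be technical. The summed T cell markers lay between 11.31 and 11.89 on all arrays. Foxp3, the lineage factor of regulatory T cells, averaged 8.18 ± 0.05 in LG_eTreg, 4.24 ± 0.62 in LG_eTconv and 3.95 ± 1.04 in LG_naive (SD, n = 3 each), and 5.77 and 2.39 on the Spl_CD4 and Spl_CD8 arrays. Foxp3 was above the background limit on every array, LG_eTconv and LG_naive included. Of the other listed regulatory markers, Il2ra was also called higher in LG_eTreg than in LG_eTconv (2.03, adjusted p = 0.000135 by limma). Ikzf2 and Ctla4 were not called between these subsets (1.02 and 0.29, adjusted p = 0.096 and 0.267). Both were called higher in LG_eTconv than in LG_naive, by 2.7 and 1.66. The 18S ribosomal RNA controls were high on LG_eTreg 3 (6.69) and LG_naive 1 (6.63), against 4.34 to 5.68 on the others, and LG_eTconv 1 had the widest 3′ to 5′ gap in the actin controls (3.35, against 1.53 to 2.86). The labels give 1 sample a lower RNA integrity number without tying it to a group. LG_eTreg 3, LG_naive 1 and LG_eTconv 1 were also left out together, and a call lost by this is given with its result.

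**Figure D1:**
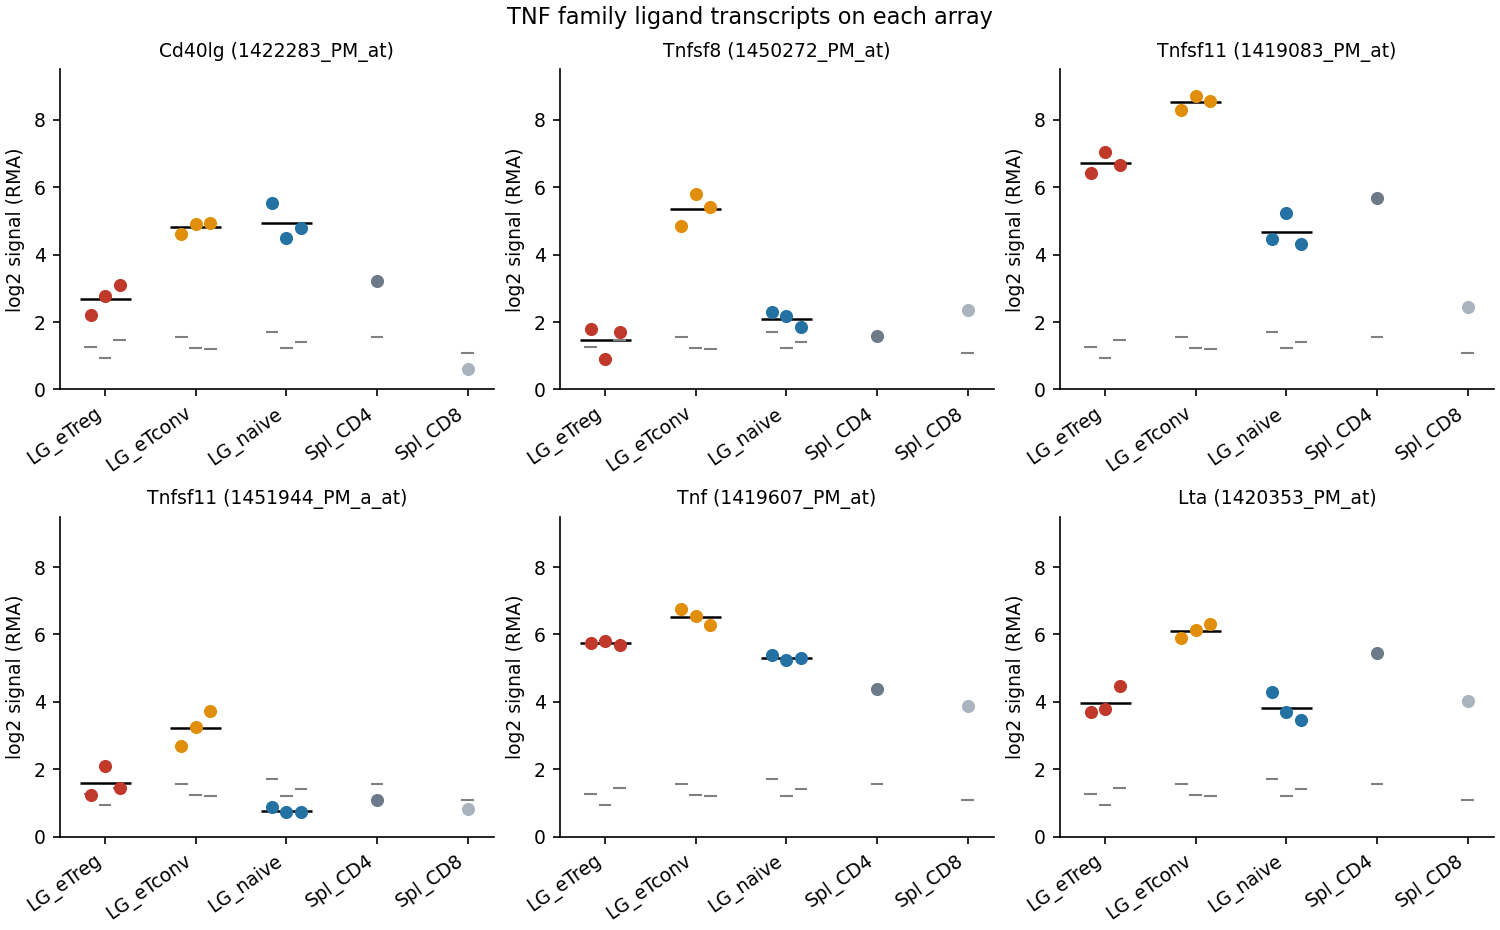
Log2 signal (vertical axis) of the 6 probe sets of the 5 ligands on each of the 11 arrays, by group. Points are arrays, black bars are group means of the 3 gland arrays and short grey marks are each array's background limit. All LG_eTconv arrays lie above all LG_eTreg arrays in every panel, and Cd40lg is the only ligand for which LG_naive reaches the LG_eTconv level.

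Tnfsf11 encodes RANK ligand, which drives osteoclast differentiation and lymph node development. Its probe set 1419083_PM_at read 6.42, 7.04 and 6.66 in LG_eTreg, 8.29, 8.72 and 8.55 in LG_eTconv, and 4.47, 5.24 and 4.31 in LG_naive. The 3 gland groups stood in 3 separate bands, with LG_eTconv highest, LG_eTreg between and LG_naive lowest. The difference of LG_eTconv from LG_naive was 3.85 (95% interval 3.25 to 4.45), or 14.4-fold, with adjusted p = 2.97e-05 (limma), and it ranked 96 among 17097 genes. LG_eTreg also exceeded LG_naive, by 2.03 (1.43 to 2.63), or 4.08-fold (adjusted p = 0.0013). LG_eTreg was 3.52-fold below LG_eTconv (log2 difference −1.82, interval −2.42 to −1.22, adjusted p = 0.0044). This last call was lost when LG_naive 1, LG_eTconv 1 and LG_eTreg 3 were left out together (adjusted p = 0.0596, log2 difference −1.91). Tnfsf11 was thus the one ligand of the 5 for which both effector subsets passed the test against LG_naive in the same direction.

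The other Tnfsf11 probe set, 1451944_PM_a_at, was dim: it read 1.23, 2.11 and 1.46 in LG_eTreg, 2.70, 3.25 and 3.73 in LG_eTconv, and 0.87, 0.73 and 0.73 in LG_naive. It was above the background limit on 1 of 3 LG_eTreg arrays, on all 3 LG_eTconv arrays and on 0 of 3 LG_naive arrays, so only the LG_eTconv signal was measured throughout. With the background limit in place of the LG_naive values, LG_eTconv was at least 3.45-fold higher. On the values as deposited the log2 difference was 2.45 (adjusted p = 0.000925 by limma over the probe sets with 1 symbol). LG_eTreg was lower than LG_eTconv on this probe set too (log2 difference −1.63, adjusted p = 0.0174), while LG_eTreg against LG_naive did not pass (0.82, adjusted p = 0.144).

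Lta encodes lymphotoxin alpha, which is secreted as a homotrimer that binds both TNF receptors or joins lymphotoxin beta on the cell surface. Its signal was 3.69, 3.78 and 4.46 in LG_eTreg, 5.89, 6.14 and 6.31 in LG_eTconv, and 4.29, 3.69 and 3.46 in LG_naive. All LG_eTconv arrays lay above all others of the gland, and the LG_eTreg and LG_naive arrays overlapped. LG_eTconv exceeded LG_naive by 2.30 (1.69 to 2.91), or 4.91-fold (adjusted p = 0.000608). LG_eTreg was 4.39-fold lower than LG_eTconv (log2 difference −2.13, interval −2.75 to −1.52, adjusted p = 0.00207). Between LG_eTreg and LG_naive the log2 difference was 0.16 with an interval of −0.45 to 0.77 (adjusted p = 0.809). Its sign turned without LG_eTreg 3 (−0.08) and without LG_naive 3 (−0.02).

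Tnf encodes TNF itself, made as a membrane protein and shed by the protease ADAM17. It read 5.75, 5.82 and 5.70 in LG_eTreg, 6.75, 6.56 and 6.29 in LG_eTconv, and 5.39, 5.24 and 5.31 in LG_naive. The spread within groups was small, with SDs of 0.06, 0.23 and 0.07, and no groups overlapped. Tnf showed the smallest called differences of the 5 ligands. LG_eTconv exceeded LG_naive by 1.22 (0.92 to 1.51), or 2.33-fold (adjusted p = 0.000365). LG_eTreg was 1.71-fold lower than LG_eTconv (log2 difference −0.78, interval −1.07 to −0.48, adjusted p = 0.00915), a call that was lost without the 3 arrays that stood apart (−0.64, adjusted p = 0.0843). LG_eTreg stood above LG_naive by 0.44 (0.15 to 0.74), or 1.36-fold, and did not pass the test (adjusted p = 0.0663). It passed in 3 of 19 alternatives: with these 2 groups fitted alone (0.0446), without LG_eTconv 1 (0.0425) and without LG_eTconv 3 (0.0384).

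Tnfsf8 encodes CD30 ligand (CD153), whose receptor CD30 is found on activated lymphocytes. It read 1.78, 0.89 and 1.71 in LG_eTreg, 4.84, 5.79 and 5.41 in LG_eTconv, and 2.29, 2.17 and 1.85 in LG_naive. The LG_eTconv arrays stood far above a low level in the other gland groups, and 1 of the 3 LG_eTreg arrays was not above its background limit. The contrast of LG_eTreg with LG_eTconv was the widest among the ligands, 14.8-fold lower (log2 difference −3.89, interval −4.57 to −3.20, adjusted p = 0.000132). With every value under the highest limit of any array (1.70) raised to it, the difference was −3.62 (adjusted p = 0.000576 by limma). Since LG_eTreg lay near its limits, the size of the fold rests on values close to background. LG_eTconv exceeded LG_naive by 3.24 (2.55 to 3.93), or 9.47-fold (adjusted p = 0.000164). The LG_naive arrays lay 0.44 to 0.95 above their limits, so the size of this fold also rests on values close to background. LG_eTreg and LG_naive did not overlap, with a log2 difference of −0.64 and an interval of −1.33 to 0.05, and the difference did not pass (adjusted p = 0.253).

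Cd40lg departed from the other 4 in LG_naive. It read 2.22, 2.76 and 3.10 in LG_eTreg, 4.61, 4.90 and 4.94 in LG_eTconv, and 5.54, 4.48 and 4.80 in LG_naive. The LG_eTconv and LG_naive arrays overlapped, with a wider spread in LG_naive, and all LG_eTreg arrays lay below both. LG_eTreg was 4.74-fold lower than LG_naive (log2 difference −2.24, interval −2.94 to −1.55, adjusted p = 0.00164) and 4.36-fold lower than LG_eTconv (−2.12, interval −2.82 to −1.43, adjusted p = 0.00407). LG_eTconv minus LG_naive was −0.12, with an interval of −0.81 to 0.57 and adjusted p = 0.875. The upper end of this interval lay below the lower end of the interval of each other ligand in the same comparison (0.92 for Tnf, the lowest). The sign of this difference turned without LG_naive 1, the array with the highest Cd40lg signal (0.18), and without the 3 arrays that stood apart (0.28).

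**Figure D2:**
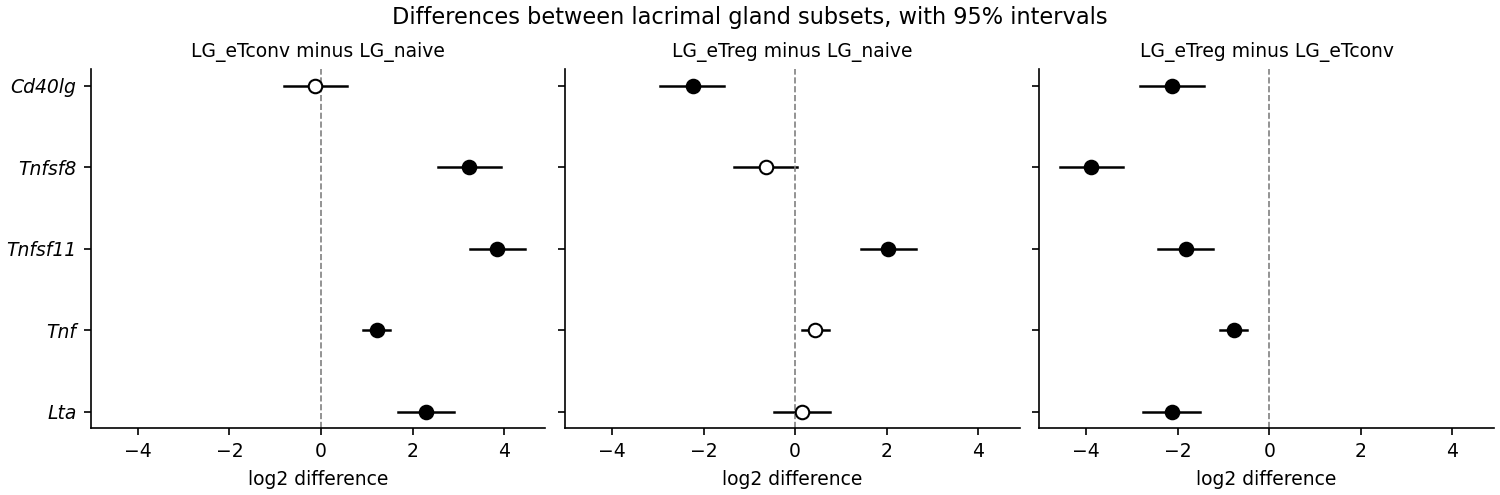
Log2 differences between the gland subsets (horizontal axis) for each ligand (vertical axis), with 95% limma intervals as bars. Filled points have an adjusted p under 0.05 over all genes and open points do not. In LG_eTreg minus LG_eTconv all 5 points lie left of 0, from −0.78 for Tnf to −3.89 for Tnfsf8.

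The order of the group means therefore differed between ligands. Tnfsf11 and Tnf ran LG_eTconv, LG_eTreg, LG_naive from high to low, with each step beyond the spread of the arrays for Tnfsf11, and the last step short of the threshold for Tnf. For Lta and Tnfsf8 LG_eTconv stood alone above LG_eTreg and LG_naive, which did not separate by the test. For Cd40lg LG_naive and LG_eTconv stood together above LG_eTreg. Over the 11 arrays the ligands' signals correlated at Pearson r = 0.88 for Tnfsf11 and Tnf and 0.84 for Tnfsf8 and Lta, and at 0.38 to 0.58 for Cd40lg with each of the others. These coefficients describe 11 arrays that share groups and carry no test.

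The spleen arrays place the gland levels beside T cells of the same mice, with 1 array each and therefore no test. Differences are counted here at 2-fold or more with all 3 gland arrays on 1 side of the Spl_CD4 array, a rule that 12.4% of all genes met for LG_eTreg, 13.2% for LG_eTconv and 9.24% for LG_naive; 8.25% of genes were 2-fold or more apart between Spl_CD8 and Spl_CD4. Cd40lg read 3.23 on Spl_CD4 and was not above background on Spl_CD8 (0.60, limit 1.08), which puts Spl_CD8 at least 4.45-fold below Spl_CD4. LG_eTconv and LG_naive were 3.0-fold and 3.26-fold above Spl_CD4 in Cd40lg, and LG_eTreg differed by −0.54. Cd40lg was thus lowest on the Spl_CD8 array and highest in LG_eTconv and LG_naive. Tnfsf11 read 5.69 on Spl_CD4 and 2.45 on Spl_CD8. LG_eTconv was 7.12-fold and LG_eTreg 2.02-fold above the Spl_CD4 array, and LG_naive was 2.02-fold below it. The last 2 only just met the rule, with log2 differences of single arrays of 0.73 to 1.35 and −1.38 to −0.45. With 1 LG_naive array left out, the LG_naive difference ran from −1.3 to −0.83. Spl_CD4 thus lay between LG_eTreg and LG_naive in Tnfsf11. Tnf read 4.37 on Spl_CD4 and 3.87 on Spl_CD8, below every gland array. LG_eTreg and LG_eTconv exceeded Spl_CD4 in Tnf by 2.61-fold and 4.47-fold, and LG_naive by 1.92-fold. Lta read 5.45 on Spl_CD4 and 4.03 on Spl_CD8. For Lta the Spl_CD4 array lay near LG_eTconv, with LG_eTreg 2.78-fold and LG_naive 3.11-fold below it. Tnfsf8 read 1.60 on Spl_CD4 and 2.35 on Spl_CD8, and only LG_eTconv stood apart from Spl_CD4 (13.4-fold). The Spl_CD4 value lay 0.04 above its background limit, so the size of this fold rests on 1 value close to background. Of the 21 listed NFAT and AP-1 genes, 12 in LG_eTreg, 12 in LG_eTconv and 10 in LG_naive were 2-fold or more above Spl_CD4 by the same rule, and 0, 1 and 0 were as far below it. Fos averaged 9.34 in LG_eTreg, 9.32 in LG_eTconv and 9.57 in LG_naive, against 3.22 and 5.41 on Spl_CD4 and Spl_CD8, and Fosb averaged 8.16, 8.65 and 8.34, against 1.51 and 0.99, which were not above background. Egr3 of the same list averaged 2.01, 2.23 and 2.11, against 2.01 and 2.07. The labels describe enzyme digestion for the gland only, and the summed B cell markers were 8.94 and 9.62 on the spleen arrays, against 4.83 to 6.24 in the gland. The part of either in these gaps was not tested.

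The receptors of the 5 ligands were measured on the same arrays. Of 8 receptor genes, 3 (Tnfrsf8, the CD30 gene; Tnfrsf11a, the RANK gene; and Tnfrsf11b, the gene of the RANK ligand decoy osteoprotegerin) were not above background on any of the 11 arrays. Tnfrsf1b, which encodes TNF receptor 2, was higher in both effector subsets than in LG_naive. It averaged 8.24 ± 0.12 in LG_eTreg, 7.45 ± 0.11 in LG_eTconv and 5.77 ± 0.16 in LG_naive (SD, n = 3 each). Unlike the ligands it was higher in LG_eTreg than in LG_eTconv (0.79, adjusted p = 0.00635). Another probe set of Tnfrsf1b differed by 0.12 in that comparison, by 0.05 in LG_eTconv minus LG_naive and by 0.17 in LG_eTreg minus LG_naive, and was not called. For the mean of both probe sets the differences were 0.45, 0.87 and 1.32 in the same order, and each passed. Tnfrsf1a, which encodes the death domain receptor TNF receptor 1, was lower in LG_eTreg (3.3 ± 0.09) and LG_eTconv (3.03 ± 0.23) than in LG_naive (4.41 ± 0.24), with log2 differences of −1.11 (adjusted p = 0.00244) and −1.38 (adjusted p = 0.000593). The summed monocyte and macrophage markers were 7.19 to 7.32 in LG_eTreg, 7.04 to 7.38 in LG_eTconv and 8.85 to 9.40 in LG_naive, and their part in this difference was not tested. Cd40 averaged 4.82 in LG_eTreg, 4.59 in LG_eTconv and 4.87 in LG_naive, and read 7.20 and 6.83 on Spl_CD4 and Spl_CD8. Cd40, Ltbr and Tnfrsf14 passed the test in no comparison of the gland subsets.

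The other TNF family ligands were described as a list of 13 genes, of which 10 had a probe set under their symbol. In LG_eTconv minus LG_naive 7 of the 10 were higher and 0 lower (median 1.45), in LG_eTreg minus LG_naive 3 and 0 (0.04), and in LG_eTreg minus LG_eTconv 0 and 5 (−0.90). Over 19 alternatives these counts ran from 6 to 7, from 2 to 3 and from 2 to 6. The count of 5 was 3 without LG_eTreg 1, LG_eTconv 1, LG_eTconv 2 or LG_eTconv 3, and 2 without LG_eTreg 2. Tnfsf4, the OX40 ligand gene, had the pattern of Tnfsf8: 1.10, 1.14 and 0.94 in LG_eTreg, 4.03, 4.80 and 4.29 in LG_eTconv, and 1.2, 1.36 and 0.97 in LG_naive. Its differences were 3.20 for LG_eTconv minus LG_naive (adjusted p = 1.76e-05) and −3.31 for LG_eTreg minus LG_eTconv (adjusted p = 3.4e-05), and only 1 array each of LG_eTreg and LG_naive was above background. Tnfsf14, the gene of LIGHT, averaged 2.16 in LG_eTreg, 5.38 in LG_eTconv and 1.36 in LG_naive, a rise of 4.02 in LG_eTconv over LG_naive (adjusted p = 0.00344). Its other probe set rose by 0.88, and the mean of both by 2.45. Its LG_eTreg arrays were split (1.51, 1.37 and 3.59), and the log2 difference of −3.22 from LG_eTconv (adjusted p = 0.0217) lost its call without LG_eTreg 1, LG_eTreg 2, LG_eTconv 2 or LG_eTconv 3 (adjusted p = 0.0696 to 0.0839) and with these 2 groups fitted alone (0.0538). Tnfsf13b, the gene of the B cell survival factor BAFF, was graded like Tnfsf11: 4.17 in LG_eTreg, 6.31 in LG_eTconv and 2.45 in LG_naive. The rise of Tnfsf13b in LG_eTconv over LG_naive (3.86, adjusted p = 0.000276) passed in all 19 alternatives, but only 1 of its 3 probe sets was called, another differed by 0.52, and the mean of the 3 differed by 1.73. Its difference in LG_eTreg over LG_naive (1.72, adjusted p = 0.0235) was lost without LG_eTreg 3, LG_naive 2 or LG_naive 3 (adjusted p = 0.0578 to 0.0616) and in 3 other alternatives (0.0685 to 0.07). That between LG_eTreg and LG_eTconv (−2.14, adjusted p = 0.0143) was lost without LG_eTreg 1, LG_eTreg 2, LG_eTconv 1 or LG_eTconv 3 (0.0504 to 0.0597). This call was also lost with values under 1.70, the highest background limit, raised to 1.70 (0.0516). Tnfsf9, the 4-1BB ligand gene, and Tnfsf10, the TRAIL gene, were higher than in LG_naive in LG_eTreg (1.92 and 1.44) and in LG_eTconv (2.73 and 1.88), and did not pass between the effector subsets. For Tnfsf10, 1 of 3 probe sets was called lower in LG_eTreg than in LG_eTconv, and the 3 ranged from −1.17 to −0.44. Cd70 was 1.02 higher in LG_eTconv than in LG_naive, and LG_eTreg minus LG_eTconv was −1.02 (adjusted p = 0.00997). It was above background on 1 of 3 LG_naive and 2 of 3 LG_eTreg arrays. With values under 1.70, the highest background limit, raised to 1.70 on all arrays the Cd70 differences were 0.87 and −0.87. That setting also raised values that were above their own array's limit. The remaining called gene, Fasl, encodes the Fas ligand and is named because it completes these counts, after its values were seen. Its differences of 0.86 in LG_eTconv minus LG_naive and −1.0 in LG_eTreg minus LG_eTconv were lost without LG_eTconv 1 or LG_eTconv 2, the first also without LG_naive 2 or LG_naive 3 and the second without LG_eTreg 2 or LG_eTreg 3 (adjusted p = 0.0574 to 0.0844 and 0.0547 to 0.0824). Both were also lost with the mean of the Fasl probe sets (0.115 and 0.213) and with values under 1.70 raised to 1.70 (0.0542 and 0.058). Ltb, whose product anchors lymphotoxin alpha at the cell surface, passed in none of the comparisons.

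**Figure D3:**
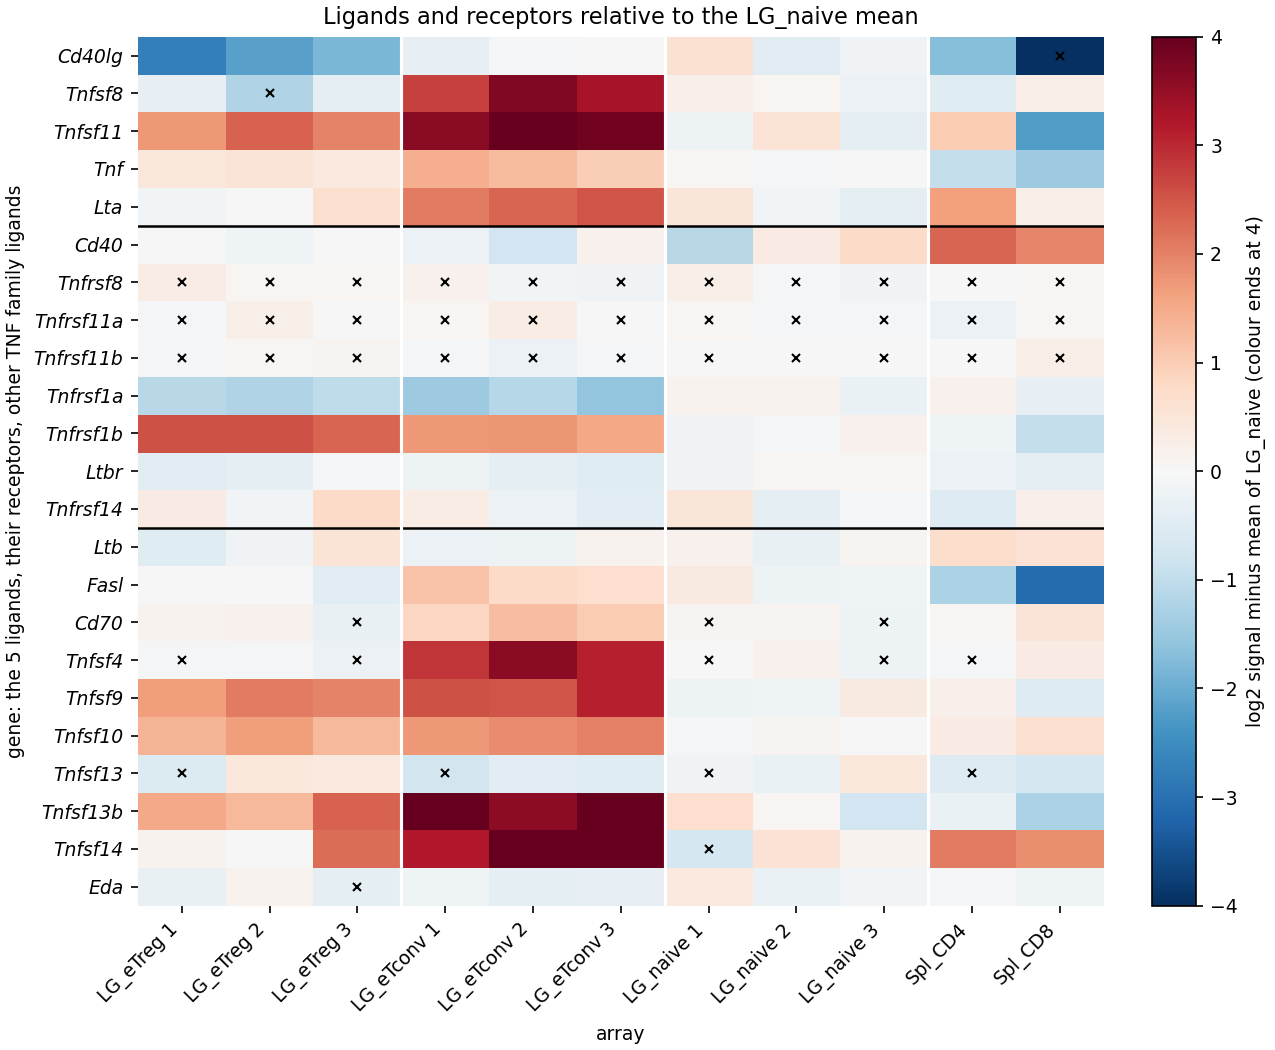
Log2 signal minus the LG_naive mean (colour, ending at 4 in either direction) for the 5 ligands, their 8 receptors and 10 other TNF family ligands (rows) on the 11 arrays (columns). Crosses mark values not above the array's background limit. The red block of LG_eTconv in Tnfsf8, Tnfsf11, Lta, Tnfsf4, Tnfsf13b and Tnfsf14 is paler or absent in LG_eTreg.

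Since the ligands were lower together in LG_eTreg than in LG_eTconv, their promoter stretches are shown for the letters they hold. The 250 bases before the annotated start (RefSeq, build GRCm38.p6, all on the minus strand, printed 5′ to 3′ in the direction of transcription) were given for 4 of the 5 ligands, and Cd40lg, on chromosome X, is named only. Capitals mark matches on either strand to GGAAA, the core recognised by NFAT factors, or to the κB-like run GGGNNNNNCC. The stretches are Tnfsf8 at chr4:63861285-63861534, Tnfsf11 at chr14:78308044-78308293, Tnf at chr17:35202008-35202257 and Lta at chr17:35205352-35205601.
Tnfsf8: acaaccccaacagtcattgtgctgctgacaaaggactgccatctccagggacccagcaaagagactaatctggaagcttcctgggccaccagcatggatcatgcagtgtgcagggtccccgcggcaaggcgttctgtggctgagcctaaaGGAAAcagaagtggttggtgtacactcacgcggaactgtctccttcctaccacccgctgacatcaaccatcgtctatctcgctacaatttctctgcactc
Tnfsf11: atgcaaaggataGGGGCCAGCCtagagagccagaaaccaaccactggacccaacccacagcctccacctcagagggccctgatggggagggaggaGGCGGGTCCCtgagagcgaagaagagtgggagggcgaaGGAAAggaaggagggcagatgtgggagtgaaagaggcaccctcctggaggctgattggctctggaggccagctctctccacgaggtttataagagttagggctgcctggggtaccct
Tnf: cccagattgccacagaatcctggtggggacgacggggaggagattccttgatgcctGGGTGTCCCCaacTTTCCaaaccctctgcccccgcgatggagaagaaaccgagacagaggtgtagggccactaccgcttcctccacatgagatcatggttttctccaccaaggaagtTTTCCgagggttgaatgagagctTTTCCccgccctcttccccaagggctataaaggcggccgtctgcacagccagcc
Lta: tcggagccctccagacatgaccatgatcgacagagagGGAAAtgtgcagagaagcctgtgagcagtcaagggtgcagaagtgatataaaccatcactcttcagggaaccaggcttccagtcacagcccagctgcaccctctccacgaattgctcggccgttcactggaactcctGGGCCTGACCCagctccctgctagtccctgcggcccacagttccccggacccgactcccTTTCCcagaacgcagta

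Matches were counted in a window from 250 bases before to 50 after the start, on both strands, and no match of one motif overlapped one of the other. The Tnfsf8 window held 1 NFAT core and 0 κB-like runs. Tnfsf11 held 1 NFAT core and 2 κB-like runs, at −238 and −155. Tnf held 3 NFAT cores, at −181, −77 and −54, and 3 κB-like matches, of which a pair reads the same run at −194 on both strands and 1 lies at 30, past the printed stretch. Lta held 3 NFAT cores, at −213, −17 and 42, and 2 κB-like matches that overlap each other at −76 and −75. Of 32851 promoter windows of this length, 61.3% held at least 1 NFAT core and 9.42% at least 3, and 50.8% held a κB-like run, 29.7% at least 2 and 16.8% at least 3. Such matches are common and describe letters, not bound sites. Tnf and Lta are neighbours on chromosome 17, with Ltb on the other side of Tnf. Their levels differed all the same: over LG_naive, LG_eTconv was 4.91-fold higher in Lta and 2.33-fold higher in Tnf, and Ltb did not pass the test.

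**Figure D4:**
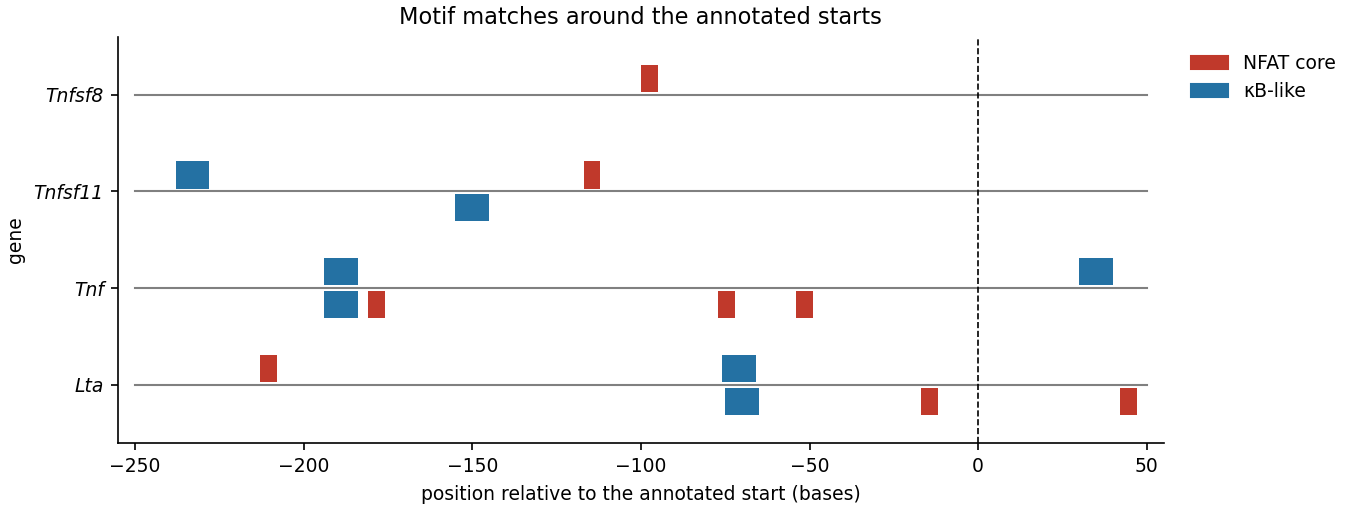
Matches to the NFAT core (red) and the κB-like run (blue) in the 4 promoter windows, by distance in bases from the annotated start (horizontal axis, dashed line at the start). Boxes above a line are on the gene's strand and boxes below it on the other, and Tnf and Lta hold 3 NFAT cores each against 1 each in Tnfsf8 and Tnfsf11.

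Genes of the NFAT and AP-1 route, by which the antigen receptor induces these ligands, were measured for all 21 listed. In LG_eTconv minus LG_naive 3 were higher and 3 lower (median 0.12), in LG_eTreg minus LG_naive 3 and 1 (0.13), and in LG_eTreg minus LG_eTconv 2 and 1 (−0.01). The count of 2 was 1 without LG_eTreg 1, LG_eTreg 2, LG_eTconv 1, LG_eTconv 2 or LG_eTconv 3, and the lower count was 2 without LG_eTreg 3 or LG_eTconv 1 and 0 without LG_eTconv 2 or LG_eTconv 3. Nfatc1, an NFAT factor, was higher in both effector subsets, by 1.94 in LG_eTreg (adjusted p = 0.00103) and 2.33 in LG_eTconv (adjusted p = 0.000308). Nr4a2, a nuclear receptor gene induced by antigen receptor signalling, was higher by 1.63 and 1.64. Rcan1, which encodes a feedback inhibitor of calcineurin, read 4.29, 5.23 and 5.24 in LG_eTreg, 6.13, 6.55 and 6.76 in LG_eTconv, and 4.08, 3.62 and 4.17 in LG_naive. It was higher in LG_eTconv than in LG_naive by 2.52 (adjusted p = 0.000575). Its log2 difference of −1.56 in LG_eTreg minus LG_eTconv (adjusted p = 0.016) was lost without LG_eTconv 2 or LG_eTconv 3 (0.0634 and 0.0637). This call was also lost without the 3 arrays together, with values under 1.70 raised to 1.70 and with the mean of the Rcan1 probe sets (0.0523 to 0.0621). The other Rcan1 probe set differed by 0.43 in LG_eTconv minus LG_naive and by −0.23 in LG_eTreg minus LG_eTconv, and the means of both by 1.48 and −0.90. Ppp3ca, the gene of a calcineurin catalytic subunit, was lowest in LG_eTconv, with 6.35 in LG_eTreg, 4.63 in LG_eTconv and 6.05 in LG_naive. Its LG_eTreg minus LG_eTconv difference was 1.73 (adjusted p = 0.00145 by limma). LG_eTreg minus LG_naive was not called for Ppp3ca (0.3, adjusted p = 0.465). Jun was lower than in LG_naive in LG_eTreg (−0.84, adjusted p = 0.00451). The Jun call in LG_eTconv (−0.63, adjusted p = 0.0159) was lost without LG_eTconv 1, LG_eTconv 2, LG_naive 2 or LG_naive 3 (0.0528 to 0.0587). Fosl2 was called in LG_eTreg minus LG_naive (0.41, adjusted p = 0.0421), and the call was lost without any 1 of the 9 arrays (0.0517 to 0.127) and in 4 other alternatives (0.0527 to 0.14). Egr1 was lower in LG_eTconv than in LG_naive (−0.54, adjusted p = 0.00704), a call lost without the 3 arrays together (0.0706). It differed by 0.51 in LG_eTreg minus LG_eTconv (adjusted p = 0.0196), a call lost without LG_eTreg 1, LG_eTreg 2, LG_eTconv 1, LG_eTconv 2 or LG_eTconv 3 (0.051 to 0.0724) and without the 3 arrays together (0.131). For Nfatc1 4 of 5 probe sets and for Nr4a2 3 of 5 were called higher in each effector subset.

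Of 12 measured genes of NF-κB subunits and inhibitors, 6 were higher and 1 lower in LG_eTconv minus LG_naive (median 0.52), 4 and 1 in LG_eTreg minus LG_naive (0.51), and 1 and 1 in LG_eTreg minus LG_eTconv (−0.09). The counts of 6 and 4 ran from 3 to 8 and from 2 to 5 over 19 alternatives, with the lowest counts reached without LG_eTconv 2, LG_naive 2 or LG_naive 3 for the first and without LG_eTreg 1, LG_eTreg 2 or LG_naive 3 for the second. Rel, the c-Rel subunit, exceeded LG_naive by 1.22 in LG_eTreg (adjusted p = 0.00983) and by 1.60 in LG_eTconv (adjusted p = 0.00203). Nfkbid, an atypical inhibitor, exceeded it by 1.04 and 1.06. Nfkbia, the gene of the inhibitor IκBα, was graded LG_eTreg 7.43, LG_eTconv 8.15 and LG_naive 6.79. Its rise in LG_eTconv over LG_naive (1.36, adjusted p = 0.000376) held in all 19 alternatives. Its difference in LG_eTreg minus LG_naive (0.64) was lost without LG_eTreg 1, LG_eTreg 2, LG_naive 1 or LG_naive 3 (adjusted p = 0.069 to 0.0754). That in LG_eTreg minus LG_eTconv (−0.72), the 1 lower call there, was lost without any LG_eTreg array or LG_eTconv 2 or LG_eTconv 3 (0.0525 to 0.0881) and with these 2 groups fitted alone (0.0597). The 1 higher call there, Bcl3 (0.80), was lost without any LG_eTreg array or LG_eTconv 3 (0.0519 to 0.0671) and with these 2 groups fitted alone (0.0613). Nfkb2 in LG_eTconv minus LG_naive (1.06) was lost without LG_eTconv 2, LG_eTconv 3, LG_naive 2 or LG_naive 3 (0.06 to 0.0755). This call was also lost with values under 1.70 raised to 1.70 (0.0531). Nfkbie in LG_eTreg minus LG_naive (0.65) was lost without any 1 array other than LG_eTreg 3 (0.0502 to 0.12) and in 4 other alternatives, the 3 arrays left out together among them (0.0594 to 0.102). The lower gene in both comparisons with LG_naive was Ikbkb, which encodes a kinase that releases NF-κB and is named after its values were seen. It differed by −0.54 in LG_eTconv, with 1 of 4 probe sets called and the call lost for their mean (adjusted p = 0.148), and by −0.42 in LG_eTreg, a call lost without any 1 array other than LG_eTconv 1 (0.0516 to 0.0896) and in 3 other alternatives, the 3 arrays left out together among them (0.0809 to 0.173).

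Of 14 measured adaptors of the receptors, 2 (Traf1 and Tank) were higher than in LG_naive in both effector subsets, and 0 were lower. This share called was near that of all genes called in either direction (13.5% for LG_eTconv and 11.7% for LG_eTreg). The shares of all genes called higher were 6.45% and 6.2%. Between LG_eTreg and LG_eTconv 0 adaptors were called by limma, with 2 at an unadjusted p under 0.05. Traf1 differed from LG_naive by 0.73 in LG_eTreg and 0.76 in LG_eTconv, and Tank by 1.14 and 0.94, the last lost with the mean of its probe sets (adjusted p = 0.0686). For Traf1 the mean of the probe sets differed by 1.18 and 1.48. Of 16 measured genes that act on ligand mRNA decay or shedding, 1 was higher in LG_eTconv minus LG_naive, 4 in LG_eTreg minus LG_naive, and 1 was higher and 1 lower in LG_eTreg minus LG_eTconv. Among all genes 6.45% and 6.2% were called higher in the first and second of these comparisons. In the third, 5.7% were called in either direction. The count in LG_eTconv minus LG_naive was thus near the share of all genes. The count of 4 was 2 without LG_eTreg 2 or LG_naive 3, and it ran from 1 to 4 over the 19 alternatives. The higher count in LG_eTreg minus LG_eTconv was 2 without LG_eTreg 1. Zc3h12d, of the Regnase family of RNA-degrading proteins, was higher than in LG_naive by 1.77 in LG_eTreg and 1.87 in LG_eTconv. Adam17, the gene of the protease that sheds TNF, was opposite to Tnf between the effector subsets: 7.94, 7.85 and 7.95 in LG_eTreg against 7.07, 7.14 and 6.96 in LG_eTconv. The Adam17 difference was 0.86 (adjusted p = 0.00151) and passed in all 19 alternatives, with 1 of its 3 probe sets called. Adam17 was also among the 4 higher in LG_eTreg minus LG_naive (0.59), a call lost with the mean of its probe sets and without the 3 arrays together (0.0671 and 0.0716). Zc3h12a (0.57) and Zfp36l1 (0.41), whose products destabilise cytokine mRNAs, were called in LG_eTreg minus LG_naive and lost the call without LG_eTreg 2, LG_naive 2 or LG_naive 3 and without LG_eTreg 1, LG_eTreg 2, LG_naive 1 or LG_naive 3 (up to adjusted p = 0.0594 and 0.0813). Both calls were also lost without the 3 arrays together (0.0528 and 0.102), that of Zc3h12a with an intensity trend (0.103) and that of Zfp36l1 with these 2 groups fitted alone (0.0636). The lower call, Tia1 (−0.58), was lost in 7 of the 9 fits without 1 array, all but those without LG_naive 1 or LG_naive 3 (adjusted p = 0.0572 to 0.123), and in 6 other alternatives (0.0522 to 0.533), and 1 of 6 probe sets was called.

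Markers of other cells moved with the groups. Of the 10 monocyte and macrophage markers summed above, 6 were lower than in LG_naive in each effector subset. Csf1r and Itgam among them were at background on every gland array. The summed signal of 9 dendritic cell markers was 8.86 to 9.32 in LG_eTreg, 8.84 to 9.10 in LG_eTconv and 10.36 to 10.87 in LG_naive, with 8 of the 9 lower in each effector subset, against 7.02% of all genes called lower in LG_eTconv and 5.47% in LG_eTreg. The ninth, Zbtb46, was called higher in LG_eTreg than in LG_naive (1.27, adjusted p = 0.0341). The 7 measured B cell markers summed to 4.83 to 5.04 in LG_eTreg, 5.90 to 6.24 in LG_eTconv and 5.88 to 6.23 in LG_naive, with Pax5 and Ighm at background on all arrays. Lacrimal epithelium markers (9) summed to 6.98 to 7.58 in LG_eTreg, 5.97 to 6.01 in LG_eTconv and 7.44 to 8.68 in LG_naive. Both CD8 T cell markers together summed to 5.21 to 5.35 in LG_eTreg, 6.22 to 6.86 in LG_eTconv and 4.70 to 5.33 in LG_naive, against 9.53 on Spl_CD8. Cd8a was 1.56 higher in LG_eTconv than in LG_naive (adjusted p = 0.00161), and Cd8b1 averaged 1.08 in LG_eTreg, 1.53 in LG_eTconv and 1.69 in LG_naive, against 6.43 on Spl_CD8. These sums bear on each ligand comparison above, and their part in the ligand differences was not tested.

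The genes whose signal over the 11 arrays was most like each ligand's were taken by Pearson r among 11159 genes above background on at least 3 arrays. The coefficients are descriptive and carry no test, since arrays of a group share their group. Tnfsf8 was closest to Rassf8 (0.981), Tnfsf4 (0.979), Ralyl (0.972), Aard (0.972) and Meg3 (0.970), 5 genes with their highest group mean in LG_eTconv. Tnfsf11 was closest to Stk39 (0.976), Spred1 (0.966), Rnf128 (0.965), Fkbp1a (0.963) and Marcksl1 (0.962). Rnf128, which encodes the ubiquitin ligase GRAIL, averaged 5.94 in LG_eTreg, 8.04 in LG_eTconv and 4.19 in LG_naive, the graded order of Tnfsf11. Tnf was closest to Ptprs (0.980), Stag1 (0.973), Lnx2 (0.969), Phtf2 (0.965) and Ypel2 (0.964). Lta was closest to Zbtb32 (0.951), Serpina9 (0.946), Stfa3 (0.932), Edc3 (0.928) and Lpar3 (0.927). Zbtb32 averaged 2.44 in LG_eTreg, 4.64 in LG_eTconv and 1.46 in LG_naive and read 3.55 on Spl_CD4, so that its spleen level, like that of Lta, lay between LG_eTconv and the other gland groups. Cd40lg had the loosest neighbours, Tpst1 (0.928), Cd9 (0.927), Cramp1l (0.906), Rnf19b (0.903) and Ms4a6c (0.902). Of these, Cd9 and Rnf19b were called lower in LG_eTreg than in LG_eTconv, with log2 differences of −1.38 and −0.94 (adjusted p = 0.0204 and 0.0333), and the other 3 were not called.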

How the data were processed

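Gene expression was measured on 11 one-colour arrays of perfect-match probe sets. Per the labels' protocols, RNAqueous kits gave the RNA, which a NuGEN Ovation kit amplified before biotin labelling. The authors' deposited signals are on a log2 scale and came from RMA and Partek, per the submitters' processing notes; versions are not given in the sources used here, and the log base is inferred from RMA. Of 45037 probe sets that are no control, 28898 carried 1 gene symbol, 551 several and 15588 none in the annotation used here. Each of 17097 genes was represented by its brightest probe set on average across the 9 gland arrays, and every probe set of the ligands was also tested. A mean per group over the 9 gland arrays was fitted with limma 3.58.1 (R 4.3.3), with empirical Bayes moderation and two-sided tests. A gene was called where its p, adjusted by Benjamini and Hochberg's method over all genes, fell under 0.05. The method was tested on simulated data. Where all arrays of a group were at or below their background limits, "at least N-fold" is the brighter group's mean against the limit. Marker sums are the log2 of summed linear signals. Spleen groups of 1 array were described without a test.

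The ligands and all lists were chosen with earlier results of these data known. Genes named are the 5 ligands, their receptors, up to 4 called genes per list and comparison with the widest difference, and 5 genes per ligand by correlation. Array signals hold no counts, so precision rests on the number of arrays. Promoter sequences are from RefSeq. Listed ligand genes Tnfsf12, Tnfsf15 and Tnfsf18 had no probe set under their symbol and were not analysed here.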

Additional observations from a re-analysis of the deposited data

How the results depend on the processing

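Alternatives (19) were run for each gland comparison: the mean of a gene's probe sets, every probe set with 1 symbol by itself, no dim genes, median centring, quantile normalization again, the replicate block, an intensity trend with robust settings, and only the 2 groups compared. In another, values under the highest background limit of any array (1.70) were raised to it on all arrays. The rest left out each of the 9 arrays, or LG_naive 1, LG_eTconv 1 and LG_eTreg 3 together. Running them for the list genes and counts as well was chosen after seeing the data. Of the ligand results under these and the spleen alternatives, 311 kept their direction and, in the gland comparisons, their side of the threshold. A further 4 changed sign, 3 newly passed and 2 no longer passed, and the cause was not tested. These counts do not track the 2-fold rule of the spleen comparison. Tnfsf11 in LG_naive minus Spl_CD4 ran from −1.3 to −0.83 with 1 LG_naive array left out, and so fell short of 2-fold at one end. The changes of sign were all in differences that did not pass: Cd40lg in LG_eTconv minus LG_naive was 0.28 without the 3 arrays together and 0.18 without LG_naive 1 (range −0.35 to 0.18 over single arrays left out), and Lta in LG_eTreg minus LG_naive was −0.08 without LG_eTreg 3 and −0.02 without LG_naive 3 (range −0.08 to 0.40). Of the other named genes' calls 956 were kept, 146 were lost and 0 changed sign. The number of genes called was 974 in LG_eTreg minus LG_eTconv, 2303 in LG_eTconv minus LG_naive and 1995 in LG_eTreg minus LG_naive, and each stayed within 1.5 times of this in all alternatives. With the replicate block the counts were 906, 2271 and 1929. The labels do not say that numbers pair the arrays. Deviations of arrays with the same number correlated at −0.097 to 0.283 (9 pairs), against −0.230 to 0.186 for different numbers (18 pairs). In 10 of 18 cases an array correlated best with its own number. Between LG_eTreg and LG_eTconv same numbers correlated at 0.283, 0.079 and 0.171, and different numbers at −0.230 to 0.019. In pairs with LG_naive the ranges were −0.097 to 0.137 and −0.18 to 0.186. These values do not settle whether the numbers pair the arrays, and the block was run only as an alternative. It changed no ligand's call and, among the other named genes, ended those of Nfkbie in both comparisons with LG_naive and of Tia1. Signals at or below background, as for Tnfsf8 on 1 of 3 LG_eTreg arrays and the dim Tnfsf11 probe set in LG_naive, have a bound rather than a measured level.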
